A study of Mus musculus with 6 samples.

Results

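Transcripts of 48 genes, mostly of mitochondrial metabolite transport, were followed in CD8+ T cells of the mouse, which destroy infected and malignant cells. They were the 41 genes whose symbol begins with Slc25a and 7 genes taken with them by name, Ucp2, Mpc1, Mpc2, Tomm20, Vdac1, Vdac2 and Vdac3, out of 14481 genes in the count table. All 48 passed the filter on low counts, and all were tested. A further 6 annotated Slc25a genes (Slc25a2, Slc25a18, Slc25a21, Slc25a31, Slc25a34 and Slc25a54) were not analysed here.

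The comparison was of STAT3+ CM with STAT3- CM, in 3 libraries each of polyadenylated RNA. CM is conditioned medium from astrospheres that the labels call pSTAT3+ or pSTAT3-, pSTAT3 being STAT3, a transcription factor, once phosphorylated and thereby active. In both groups the CD8+ T cells were sorted, of WT genotype and activated with plate-bound anti-CD3e and soluble anti-CD28 (1 µg/ml each) and mouse IL-2 (0.1 µg/ml). CM was added after 1 day, RNA was taken 2 days later at day 3, and cells kept free of CM were not analysed here. The sources used here give neither strain, age nor number of animals. Nothing says that replicates came from separate mice or cultures, so p-values measure the spread between these libraries only, which may be technical.

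The inner mitochondrial membrane is closed to most charged metabolites. The SLC25 proteins are the carriers that exchange nucleotides, phosphate, carboxylic acids, amino acids and cofactors across it, mostly by taking one substrate in as another leaves. The outer membrane is crossed through the VDAC porins, and proteins made in the cytosol, the carriers among them, enter through the TOM complex. T cells enlarge their mitochondria when activated, and their growth draws on citrate, aspartate, serine-derived one-carbon units and ATP that these carriers move.

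Total counts ran from 43346089 to 53630514 per library. STAT3- CM replicate 3 lay farthest out on the first principal component (36.8% of variance) and STAT3+ CM replicate 1 on the second (31.1%). The counts of STAT3- CM replicates 1 and 2 were the most alike of any pair within a medium, with a chi-square per degree of freedom of 21.9. The other pairs had 65.5 to 84.9. The cause was not tested. CD8 T cell markers were abundant in every library: all 7 genes listed were measured and summed to 3218 to 4229.9 CPM in STAT3+ CM and 3224 to 3527 CPM in STAT3- CM. All 7 averaged higher in STAT3+ CM, with a median log2 fold change of 0.18, and the media overlapped in each. CPM, the usual unit of sequencing depth-corrected counts, is here the count scaled by library total and TMM factor. Of 11 dendritic cell markers 7 were measured. Cd74 differed most in CPM, averaging 38.9 CPM in STAT3+ CM and 74.7 CPM in STAT3- CM. Batf3 averaged 42.4 CPM in STAT3+ CM and 46.8 CPM in STAT3- CM, and there the media overlapped. Of the 7, 6 had negative log2 fold changes, and 4, Cd74 among them, lay lower in STAT3+ CM without overlap. H2-Ab1 was positive (log2 fold change 0.13). The 7 genes summed to 95.3 to 119.9 CPM in STAT3+ CM and 132 to 185 CPM in STAT3- CM. Those sums did not overlap. Nor did the level of Cd79b, 1 of 5 B cell markers and the only one tested, at 10.9 to 11.8 CPM in STAT3+ CM and 7.40 to 10.7 CPM in STAT3- CM. The part of either in the values of the carriers was not tested, and in bulk RNA fewer cells of a type and less RNA per cell cannot be told apart. The defining dendritic cell genes Flt3, Clec9a, Xcr1 and Siglech and the astrocyte genes Gfap, Aqp4, Slc1a3 and S100b were not among the genes tested. Of 6 astrocyte markers 2 were tested, and in both the media overlapped. Slc1a2 averaged 10.0 CPM in STAT3+ CM and 13.1 CPM in STAT3- CM. Aldh1l1 averaged 1.65 CPM in STAT3+ CM and 1.42 CPM in STAT3- CM. The 3 monocyte and macrophage markers tested, of 6, summed to 3.48 to 5.57 CPM in STAT3+ CM and 3.28 to 10.2 CPM in STAT3- CM, highest in replicate 3. The NK cell sums (223 to 272 CPM in STAT3+ CM, 199 to 251 CPM in STAT3- CM) also overlapped. So did the CD4 T cell sums (3.12 to 5.24 CPM in STAT3+ CM, 2.85 to 4.13 CPM in STAT3- CM). Their part in the values of the carriers was not tested.

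None of the 48 genes was called between the media. With edgeR (quasi-likelihood test, Benjamini-Hochberg adjustment over 14319 genes) 0 of 48 passed an adjusted p of 0.05, where 0% of all genes tested did. At an unadjusted p under 0.05 stood 1 of 48, Slc25a48, against 3.64% of all genes tested. DESeq2, which called 48 of all genes tested, also called 0 of the 48 members, as did limma-voom without sample quality weights (0 of all genes) and with them (16 of all genes). The 3 libraries of STAT3+ CM lay apart from the 3 of STAT3- CM in 1 member, Slc25a15, or 2.08% of members, where the share over all genes was 7.95%. It lay higher in STAT3+ CM, as 3.78% of all genes did, and 0 of 48 members lay lower throughout, against 4.18% of all genes. Neither count of members stood above that background.

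Most members had small positive values. Positive log2 fold changes, meaning a higher level in STAT3+ CM, were found for 34 of 48 members (70.8%), against 50.2% of all genes tested. Among the 41 Slc25a genes alone 27 were positive (65.9%), with a median log2 fold change of 0.057, so the companions add to the members' figures. Among the 39 members with a mean of 10 CPM or more 28 were positive (71.8%), against 51.5% of all genes at that level. The median log2 fold change was 0.081 for the members and 0.000758 for all genes. With library totals only, in place of TMM factors, 28 of 48 were positive, with a median of 0.038 against -0.042 for all genes. Relative to each gene's mean over the 6 libraries on the log2 scale, the median member stood at 0.023, 0.074 and 0.028 in STAT3+ CM, against -0.033, -0.010 and -0.097 in STAT3- CM. These medians did not overlap between the media, and the distance between the nearest libraries was smaller than the range within either medium.

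The intervals of the fold change were narrower in the more abundant members than in the rare ones. They rest on the spread between these libraries, which may be technical, so they may understate the uncertainty about the media. In 36 of 48 the 95% interval of the fold change lay within a 1.5-fold change in either direction, and in 42 of 48 within a 2-fold change. Among the 39 members with a mean of 10 CPM or more, 38 had an interval within 2-fold, and the exception was Slc25a23, with 0.464 to 1.66 times its STAT3- CM level. The 9 members under 10 CPM had a median SE of 0.33, against 0.14 in the 39 others.

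**Figure D1:**
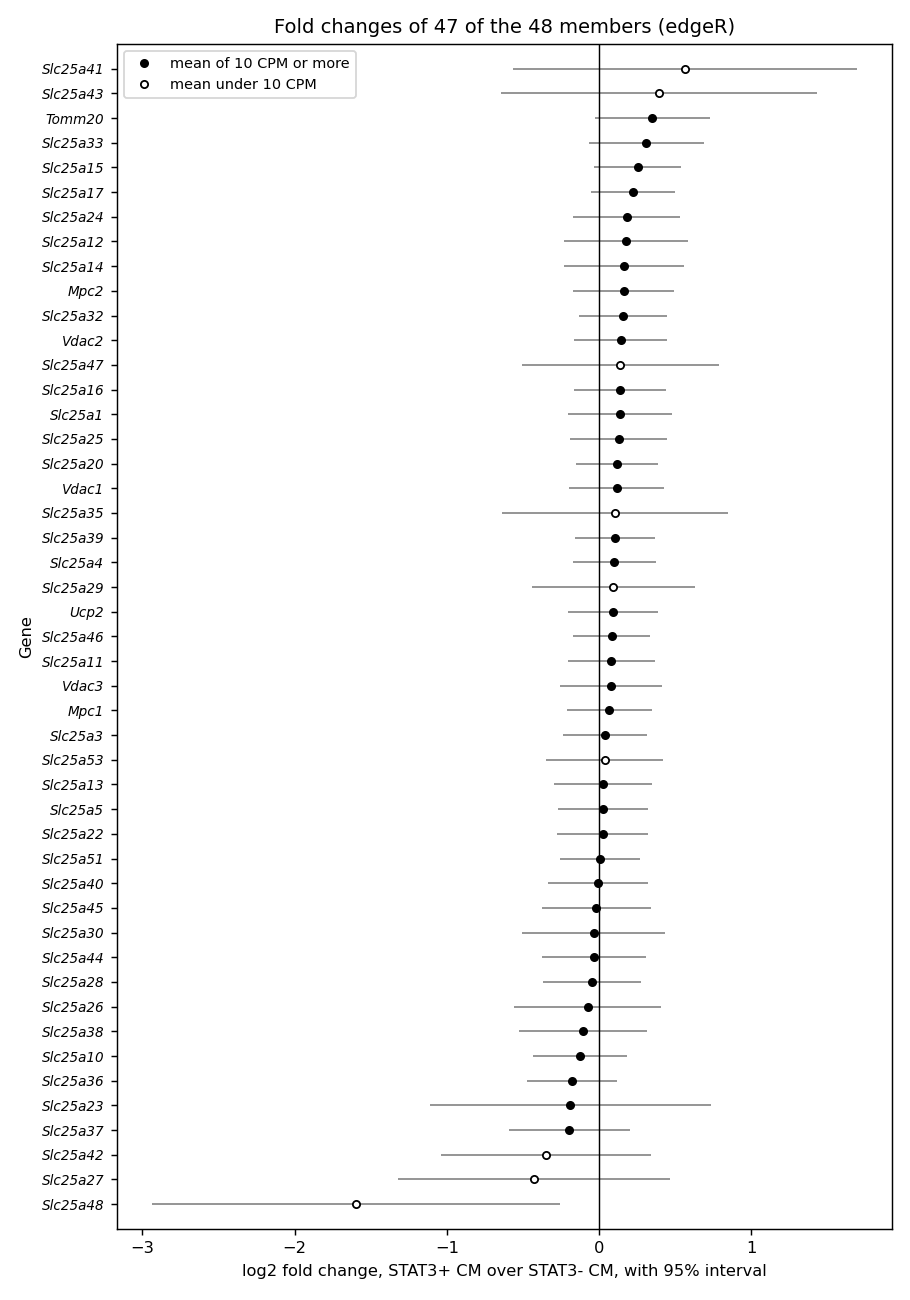
Log2 fold changes of 47 of the 48 members, STAT3+ CM over STAT3- CM, by edgeR. Each point is a gene, bars are 95% intervals over 3 libraries per medium, filled points have a mean of 10 CPM or more and open points less. All intervals but that of Slc25a48 (log2 fold change -2.94 to -0.26) cross 0, and the 3 widest belong to genes under 10 CPM.

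The members' own levels ran from major transcripts down to a few reads per library. Levels are compared between genes as CPM per kb of annotated exon, averaged over the 6 libraries. Slc25a5, which encodes an ADP/ATP exchanger, stood first at 760.2 CPM per kb (range over libraries 695 to 818). Slc25a3, the phosphate carrier, followed at 375 (358 to 401), and Slc25a4, the other ADP/ATP exchanger, at 183 (169 to 200.4). The ranges of Slc25a5, Slc25a3 and Slc25a4 did not overlap each other. These 3 genes, which supply the ATP synthase with ADP and phosphate and carry ATP out, made up 71.4% to 73.6% of the summed Slc25a level per kb in STAT3+ CM and 72.0% to 74.6% in STAT3- CM.

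Next in the order came the outer membrane genes and Ucp2. Vdac1 averaged 147 CPM per kb, Vdac2 142, Vdac3 126, Tomm20 107 and Ucp2 105, and the ranges of neighbours among these 5 overlapped. Together with the 3 leading carriers they were the 8 members at 100 CPM per kb or more. Below them 18 members lay between 10 and 100 CPM per kb, 16 between 1 and 10, and 6 under 1, namely Slc25a47, Slc25a35, Slc25a27, Slc25a41, Slc25a43 and Slc25a48. Of 47 pairs of neighbours in the order, 40 had overlapping ranges over the libraries, so the order is firm only across larger steps.

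**Figure D2:**
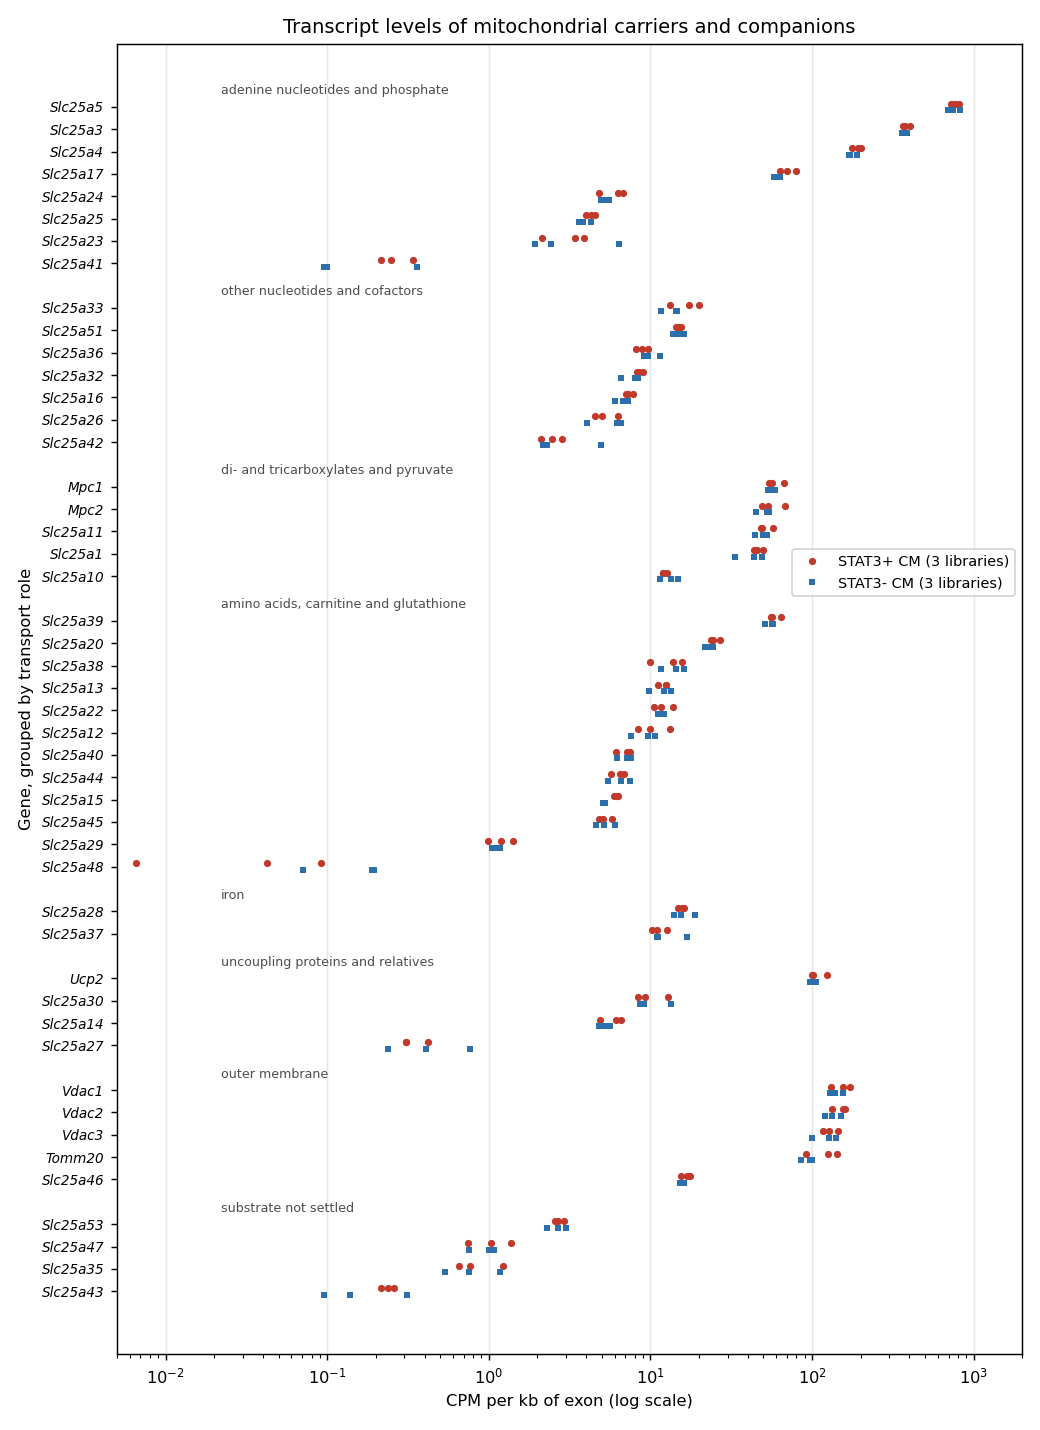
Level of 47 members in every library, in CPM per kb of exon on a log axis, grouped by transport role. Circles are the 3 STAT3+ CM libraries and squares the 3 STAT3- CM libraries. Slc25a5, Slc25a3 and Slc25a4 lead at 760.2, 375 and 183 CPM per kb, the 6 lowest members stand under 1, and the media overlap in every gene but Slc25a15.

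Carriers of adenine nucleotides and phosphate include the 3 leading transcripts, and 7 of 8 had positive log2 fold changes (5 of 8 with library totals only), with a median of 0.11 and 0 called. Slc25a5 had 951, 1011 and 891 CPM in STAT3+ CM, against 926, 1015 and 862 CPM in STAT3- CM (log2 fold change 0.025, SE 0.13, edgeR adjusted p = 0.998). Replicates of the same medium differed more than the media, and the 95% interval of the log2 fold change ran from -0.27 to 0.32. With library totals only its sign turned, at -0.018. Slc25a3 averaged 739 ± 36.4 CPM in STAT3+ CM and 719 ± 32.6 CPM in STAT3- CM (SD, n = 3 each; log2 fold change 0.039, SE 0.12, edgeR adjusted p = 0.994), and Slc25a4 averaged 365 ± 24.0 CPM in STAT3+ CM and 340.4 ± 21.6 CPM in STAT3- CM (log2 fold change 0.099, SE 0.12, edgeR adjusted p = 0.989). Slc25a17, a carrier of adenine nucleotides and related cofactors in the peroxisome membrane rather than the mitochondrion, had 109, 121 and 137 CPM in STAT3+ CM, against 101, 105 and 109 CPM in STAT3- CM. Its STAT3+ CM replicate 1 lay just below STAT3- CM replicate 3, so the media overlapped (log2 fold change 0.22, SE 0.13, edgeR adjusted p = 0.989).

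The ATP-Mg/phosphate carriers, which exchange ATP-Mg for phosphate and so set the adenine nucleotide pool of the matrix, were rare, at 0.226 to 5.62 CPM per kb. Slc25a24, a calcium-binding form, had 23.2, 16.6 and 21.7 CPM in STAT3+ CM, against 16.9, 18.5 and 18.9 CPM in STAT3- CM (log2 fold change 0.18, SE 0.16, edgeR adjusted p = 0.989). Its lowest library was in STAT3+ CM, as were its 2 highest. Slc25a25, also calcium-binding, averaged 17.6 ± 1.18 CPM in STAT3+ CM and 16.1 ± 1.46 CPM in STAT3- CM and had a log2 fold change of 0.13 (SE 0.14). Slc25a23 had 13.0, 7.16 and 11.4 CPM in STAT3+ CM, against 8.15, 6.51 and 21.5 CPM in STAT3- CM. STAT3- CM replicate 3 was high and the other libraries overlapped, with a log2 fold change of -0.19 (SE 0.41). Slc25a41, a short form without the calcium-binding part, was near the floor with read counts of 15, 12 and 25 in STAT3+ CM, against 6, 6 and 22 in STAT3- CM, and its log2 fold change was 0.56 (SE 0.51).

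Carriers of other nucleotides and cofactors went both ways, with 5 of 8 positive (4 of 8 with library totals only), a median of 0.031 and 0 called. The related pyrimidine nucleotide carriers Slc25a33 and Slc25a36, which feed mitochondrial DNA and RNA synthesis, lay on opposite sides of 0. Slc25a33 had 24.9, 37.7 and 32.5 CPM in STAT3+ CM, against 27.4, 27.2 and 22.02 CPM in STAT3- CM (log2 fold change 0.31, SE 0.17, edgeR adjusted p = 0.989). STAT3+ CM replicate 1 was below 2 of the STAT3- CM libraries. Slc25a36 had 43.3, 47.0 and 51.2 CPM in STAT3+ CM, against 51.1, 48.6 and 60.8 CPM in STAT3- CM (log2 fold change -0.18, SE 0.13, edgeR adjusted p = 0.989). Here STAT3+ CM replicates 1 and 2 were the lowest libraries, but replicate 3 lay among those of STAT3- CM.

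Slc25a32, described as a carrier of folate or of the flavin cofactor FAD, had 48.5, 52.8 and 49.8 CPM in STAT3+ CM, against 47.5, 49.3 and 38.7 CPM in STAT3- CM (log2 fold change 0.16, SE 0.13, edgeR adjusted p = 0.989). STAT3- CM replicate 3 was low, and the other 5 libraries lay close together. Slc25a42, a carrier of coenzyme A, had 7.82, 6.68 and 9.05 CPM in STAT3+ CM, against 7.33, 6.88 and 15.9 CPM in STAT3- CM (log2 fold change -0.35, SE 0.31, edgeR adjusted p = 0.989). That difference lay in STAT3- CM replicate 3 alone: without it the log2 fold change was 0.15. Slc25a51, the NAD+ carrier, stood level, at 66.2 ± 2.61 CPM in STAT3+ CM and 66.0 ± 5.36 CPM in STAT3- CM (log2 fold change 95% interval -0.26 to 0.27). Slc25a16, linked to coenzyme A, had a log2 fold change of 0.14 (SE 0.14), and Slc25a26, the S-adenosylmethionine carrier, of -0.074 (SE 0.22).

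Carriers of di- and tricarboxylates and of pyruvate had 4 of 5 positive values, a median of 0.079 and 0 called. Mpc1 and Mpc2 encode the subunits of the pyruvate carrier, through which glycolytic carbon enters the matrix. Mpc1 had 83.6, 98.5 and 79.3 CPM in STAT3+ CM, against 84.2, 86.8 and 78.7 CPM in STAT3- CM (log2 fold change 0.066, SE 0.13, edgeR adjusted p = 0.989). Mpc2 had 54.6, 69.8 and 50.04 CPM in STAT3+ CM, against 54.2, 55.4 and 46.4 CPM in STAT3- CM (log2 fold change 0.16, SE 0.15, edgeR adjusted p = 0.989). In both genes STAT3+ CM replicate 2 was the highest library and STAT3- CM replicate 3 the lowest, and the media overlapped. Slc25a11, the oxoglutarate-malate carrier of the malate-aspartate shuttle, had 82.1, 98.6 and 83.8 CPM in STAT3+ CM, against 84.5, 90.1 and 75.7 CPM in STAT3- CM (log2 fold change 0.079, SE 0.13, edgeR adjusted p = 0.989) and the same highest and lowest library. Slc25a1, which exports citrate for fatty acid synthesis, averaged 77.1 ± 5.63 CPM in STAT3+ CM and 70.1 ± 13.5 CPM in STAT3- CM (log2 fold change 0.14, SE 0.15), with STAT3- CM replicate 1 the lowest library. Slc25a10, the dicarboxylate carrier, averaged 24.5 ± 0.826 CPM in STAT3+ CM and 26.7 ± 3.49 CPM in STAT3- CM (log2 fold change -0.12, SE 0.14).

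Carriers of amino acids, carnitine and glutathione held the only member whose media did not overlap. Of 12 genes 7 were positive (5 with library totals only), with a median of 0.024 and 0 called. Slc25a15, the carrier that exchanges ornithine and citrulline across the inner membrane, had 21.7, 20.4 and 21.2 CPM in STAT3+ CM, against 17.7, 17.4 and 18.0 CPM in STAT3- CM. All 3 libraries of STAT3+ CM lay above all 3 of STAT3- CM, with means of 21.1 ± 0.663 CPM in STAT3+ CM and 17.7 ± 0.344 CPM in STAT3- CM (SD, n = 3 each; log2 fold change 0.25, SE 0.13, edgeR adjusted p = 0.989). The unadjusted p was 0.0764. edgeR shares its estimate of spread between genes, so the close replicates of Slc25a15 alone do not set its SE. Leaving out any library kept its log2 fold change between 0.23 and 0.28.

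The lowest member, Slc25a48, which has been reported to import choline into mitochondria, had the log2 fold change farthest from 0 of the 48 and the smallest p. Its read counts were 1, 6 and 17 in STAT3+ CM, against 29, 31 and 11 in STAT3- CM, or 0.02203, 0.144 and 0.307 CPM in STAT3+ CM, against 0.640, 0.660 and 0.238 CPM in STAT3- CM. STAT3+ CM replicate 3 lay above STAT3- CM replicate 3, so the media overlapped, and the log2 fold change was -1.60 (SE 0.60, unadjusted p = 0.0241, edgeR adjusted p = 0.989). With libraries left out in turn it kept its sign, with the extremes -2.63 without STAT3+ CM replicate 3 and -1.11 without STAT3+ CM replicate 1.

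Among the more abundant carriers of amino acids, carnitine and glutathione 0 were called. Slc25a39, required for glutathione import, had 95.1, 107 and 94.3 CPM in STAT3+ CM, against 94.7, 95.9 and 85.9 CPM in STAT3- CM (log2 fold change 0.10, SE 0.12, edgeR adjusted p = 0.989), and its relative Slc25a40 had a log2 fold change of -0.0075 (SE 0.15). Slc25a12 and Slc25a13, the calcium-regulated aspartate-glutamate carriers that export aspartate, averaged 66.6 ± 15.4 CPM in STAT3+ CM and 58.9 ± 9.75 CPM in STAT3- CM for Slc25a12 (log2 fold change 0.18, SE 0.18) and 37.5 ± 2.46 CPM in STAT3+ CM and 36.9 ± 5.77 CPM in STAT3- CM for Slc25a13 (log2 fold change 0.026, SE 0.14). Slc25a20, the carnitine-acylcarnitine carrier that admits fatty acids for oxidation, averaged 44.3 ± 3.03 CPM in STAT3+ CM and 40.9 ± 2.47 CPM in STAT3- CM (log2 fold change 0.12, SE 0.12). The remaining members had log2 fold changes of 0.023 (SE 0.14) for the glutamate carrier Slc25a22, -0.10 (SE 0.19) for Slc25a38, which supplies glycine for heme, 0.094 (SE 0.24) for the basic amino acid carrier Slc25a29, -0.037 (SE 0.15) for Slc25a44, linked to branched-chain amino acids, and -0.020 (SE 0.16) for Slc25a45.

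The iron carriers, mitoferrin 1 (Slc25a37) and mitoferrin 2 (Slc25a28), which deliver iron for heme and iron-sulfur clusters, both had negative log2 fold changes, and neither was called. Slc25a37 had 45.9, 42.4 and 53.2 CPM in STAT3+ CM, against 46.6, 45.6 and 69.8 CPM in STAT3- CM (log2 fold change -0.20, SE 0.18, edgeR adjusted p = 0.989). Slc25a28 had 24.9, 24.1 and 22.8 CPM in STAT3+ CM, against 23.8, 21.5 and 28.7 CPM in STAT3- CM (log2 fold change -0.045, SE 0.15, edgeR adjusted p = 0.995). STAT3- CM replicate 3 was the highest library in both genes, and without it both values were positive, 0.033 for Slc25a37 and 0.079 for Slc25a28.

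Of Ucp2 and its 3 relatives 2 were positive, with a median of 0.029 and 0 called. Ucp2, an uncoupling protein common in lymphocytes that has been described as a transporter of small carboxylic acids, had 495, 398 and 406 CPM in STAT3+ CM, against 386, 409 and 422 CPM in STAT3- CM (log2 fold change 0.093, SE 0.13, edgeR adjusted p = 0.989). Only STAT3+ CM replicate 1 stood clear of the other 5 libraries. Its relative Slc25a30 had 46.3, 29.9 and 33.0 CPM in STAT3+ CM, against 32.6, 31.0 and 48.4 CPM in STAT3- CM (log2 fold change -0.036, SE 0.21, edgeR adjusted p = 0.999). STAT3+ CM replicate 1 and STAT3- CM replicate 3 were high together, and the other 4 libraries were low. Slc25a14 averaged 10.6 ± 1.60 CPM in STAT3+ CM and 9.45 ± 0.789 CPM in STAT3- CM (log2 fold change 0.16, SE 0.18), and the rare Slc25a27 1.36 ± 0.263 CPM in STAT3+ CM and 1.85 ± 1.06 CPM in STAT3- CM (log2 fold change -0.43, SE 0.40).

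All 5 outer membrane genes were positive, their median log2 fold change being 0.11, and 0 were called. Tomm20, the receptor through which the TOM complex recognises imported precursors, had 615, 695 and 449 CPM in STAT3+ CM, against 489.6, 474 and 416 CPM in STAT3- CM. STAT3+ CM replicates 1 and 2 lay above every STAT3- CM library, but replicate 3 lay below 2 of them, and the difference was within the spread (log2 fold change 0.35, SE 0.17, edgeR adjusted p = 0.989; unadjusted p = 0.0655). Without STAT3+ CM replicate 3 the log2 fold change of Tomm20 was 0.51, and without STAT3+ CM replicate 2 it was 0.21. Vdac1, Vdac2 and Vdac3 encode the porins for ADP, ATP and metabolites. Vdac1 had 352, 320.4 and 269 CPM in STAT3+ CM, against 267, 317 and 285 CPM in STAT3- CM (log2 fold change 0.11, SE 0.14, edgeR adjusted p = 0.989). Vdac2 had 369, 381 and 316 CPM in STAT3+ CM, against 315, 362 and 289 CPM in STAT3- CM (log2 fold change 0.14, SE 0.14, edgeR adjusted p = 0.989). Vdac3 had 181, 206 and 166 CPM in STAT3+ CM, against 182, 199.6 and 143 CPM in STAT3- CM (log2 fold change 0.076, SE 0.15, edgeR adjusted p = 0.989). In each porin gene STAT3+ CM replicate 3 lay among the STAT3- CM libraries, and the media overlapped. Slc25a46, a family member of the outer membrane that takes part in mitochondrial fusion and fission, had 73.6, 67.8 and 76.4 CPM in STAT3+ CM, against 66.1, 69.1 and 70.5 CPM in STAT3- CM (log2 fold change 0.082, SE 0.11, edgeR adjusted p = 0.989).

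The 4 members whose substrate is less settled were all positive (3 of 4 with library totals only, Slc25a53 being the exception), with a median of 0.12 and 0 called. Slc25a53 had 9.82, 9.10 and 8.74 CPM in STAT3+ CM, against 10.1, 7.79 and 9.09 CPM in STAT3- CM (log2 fold change 0.036, SE 0.17, edgeR adjusted p = 0.997). The media could not be told apart in it. Slc25a47 averaged 1.98 ± 0.593 CPM in STAT3+ CM and 1.79 ± 0.319 CPM in STAT3- CM, Slc25a35 3.24 ± 1.12 CPM in STAT3+ CM and 3.01 ± 1.18 CPM in STAT3- CM and Slc25a43 0.264 ± 0.0244 CPM in STAT3+ CM and 0.202 ± 0.127 CPM in STAT3- CM. Their log2 fold changes were 0.14 (SE 0.29) for Slc25a47, 0.10 (SE 0.33) for Slc25a35 and 0.39 (SE 0.47) for Slc25a43. Exons of Slc25a35 overlap those of Rangrf on the other strand over 31.3% of their length, and Rangrf averaged 34.5 CPM. The library kit keeps strand, but whether counting used it is not stated, so reads of these genes cannot be told apart for certain. The same holds for 4 members with shorter overlaps, Slc25a26 with Lrig1, Slc25a25 with Naif1, Ucp2 with Dnajb13 and Vdac2 with Comtd1.

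**Figure D3:**
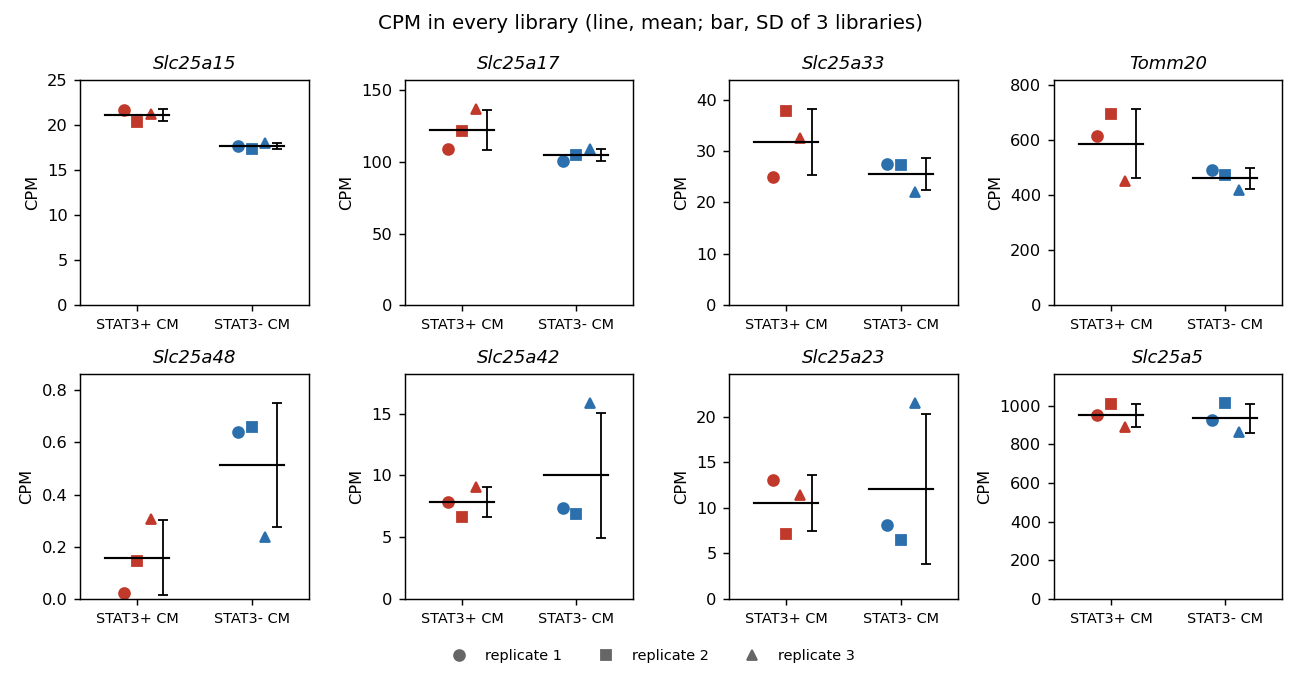
CPM in every library for 8 members, STAT3+ CM left and STAT3- CM right, with the axis from 0. Marker shapes give the replicate number, the line is the mean and the bar the SD of 3 libraries. Slc25a15 is the gene whose media do not overlap (21.1 against 17.7 CPM on average), and Slc25a42 and Slc25a23 each have 1 high library, STAT3- CM replicate 3.

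Promoter windows were looked at for motifs of factors known to act on mitochondrial and growth genes. RefSeq promoter sequences (GRCm38.p6, 250 bases before to 50 after the start) were at hand for 36 members, and each motif was searched on both strands (CACGTG reads the same on both). The E-box CACGTG, bound by MYC and related factors, stood in 7 of 36 members (19.4%), against 11.6% of 10262 tested genes with a window and 8.09% of all 27025 genes with one. The GABPA motif CCGGAAG stood in 8 of 36 (22.2%), against 20.6% of tested genes and 9.93% of all. The NRF1 motif, GCGCA and GCGC with any base between them, stood in 2 of 36 (5.56%), against 11.6% of tested genes and 5.19% of all. Slc25a3 and Tomm20, the members with matches to more than 1 motif, had them at places that did not overlap. The stretches below belong to Slc25a15, Slc25a33 and Tomm20, each with an E-box, and to the abundant Slc25a3 with its NRF1 match on the reverse strand. The matches begin 77, 8, 126 and 214 bases before the annotated start, in that order. Capitals mark the motif, and sequences run 5′ to 3′ along the gene's strand.
Slc25a15, chr8:22398329-22398374, minus strand: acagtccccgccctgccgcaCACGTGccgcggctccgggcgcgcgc
Slc25a33, chr4:149774268-149774295, minus strand: cgtcacggcccggcctccgcCACGTGac
Tomm20, chr8:126946022-126946067, minus strand: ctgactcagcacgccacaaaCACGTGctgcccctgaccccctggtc
Slc25a3, chr10:91124152-91124201, minus strand: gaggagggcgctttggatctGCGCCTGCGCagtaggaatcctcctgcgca
The gene of the E-box factor MYC averaged 342 ± 3.30 CPM in STAT3+ CM and 295 ± 11.8 CPM in STAT3- CM (log2 fold change 0.21, SE 0.11), without overlap but not called, and Nrf1 and Gabpa were not called either. The other 4 members with an E-box had log2 fold changes of 0.14 (SE 0.15) for Slc25a1, 0.026 (SE 0.14) for Slc25a13, 0.16 (SE 0.18) for Slc25a14 and -0.18 (SE 0.13) for Slc25a36. Of the 7 with the motif only Slc25a36 was negative, where 70.8% of all members were positive. A link between the motif and these values was not tested. Slc25a48, the member with the smallest p, held none of the 3 motifs in its window. A match shows letters in a window and not that a factor binds there.

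STAT3- CM replicate 3 and STAT3+ CM replicate 2 most often held the extreme values. STAT3- CM replicate 3 was the lowest library in 21 of 48 members (43.8%), where it was lowest in 24.8% of all genes tested. It was the highest library in 10 of 48 (20.8%, against 22.9% of all genes), among them Slc25a23, Slc25a27, Slc25a42, Slc25a37, Slc25a30 and Slc25a36. In Slc25a23, Slc25a27 and Slc25a42 it stood over 1.5 times above the next library, and no other library did so in any member. STAT3+ CM replicate 2 was the highest library in 16 of 48 members (33.3%, against 19.6% of all genes), Tomm20, Mpc1, Mpc2, Vdac2 and Vdac3 among them. Without STAT3+ CM replicate 2 the median log2 fold change of the members was 0.042 and 27 of 48 were positive.

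**Figure D4:**
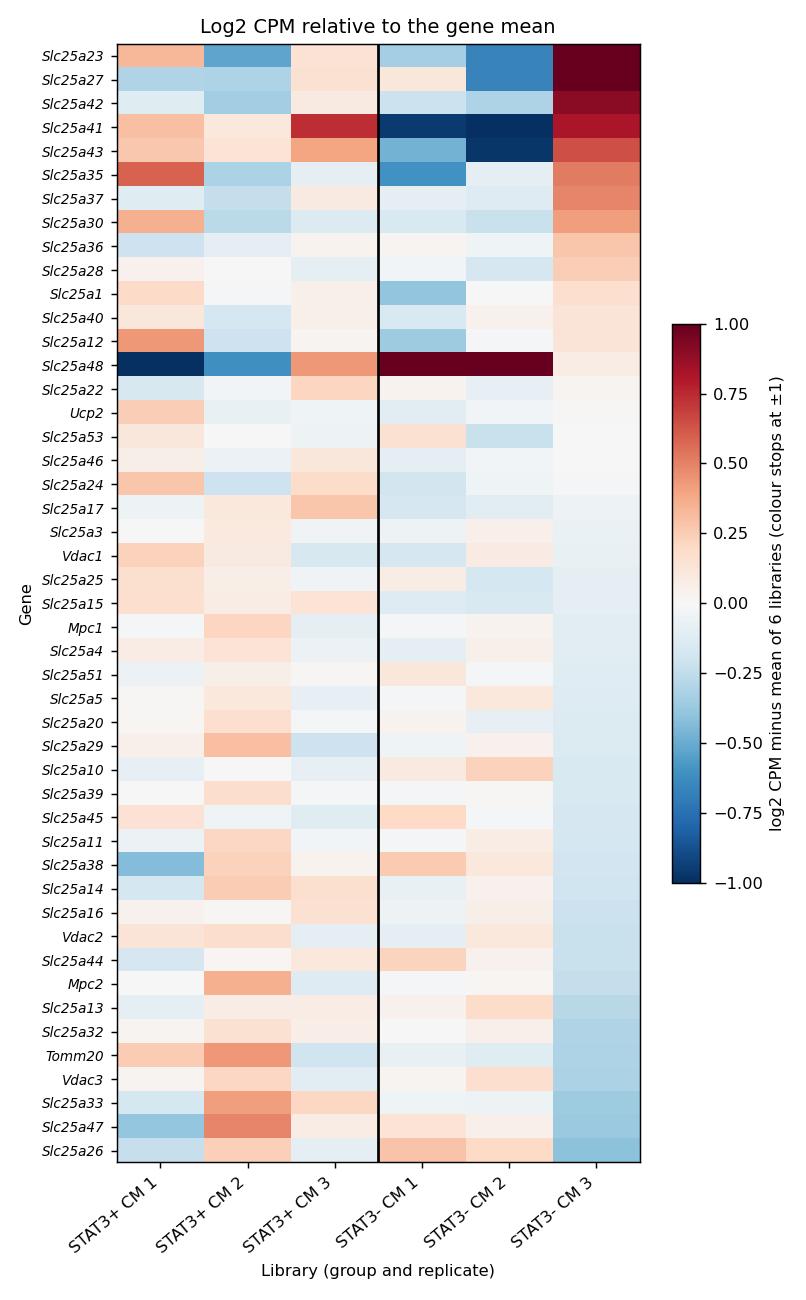
Log2 CPM of 47 members in each library minus that gene's mean over the 6 libraries, with STAT3+ CM left of the line and STAT3- CM right of it, and genes sorted by STAT3- CM replicate 3. Red is above and blue below the gene's mean, and the colour stops at 1 on either side. The rightmost column, STAT3- CM replicate 3, runs from the high Slc25a23 to the low Slc25a26, and the row of Slc25a15 alone is red in all 3 left columns and blue in all 3 right ones.

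Members that share a role were also compared as shares of their summed CPM per kb. With 3 libraries against 3 the exact two-sided permutation test cannot give a p below 0.1, and 9 shares were compared. Slc25a4 made up 20.02%, 19.73% and 19.67% of the 2 ADP/ATP exchangers in STAT3+ CM, against 18.68%, 18.82% and 19.57% in STAT3- CM (exact permutation p = 0.1, adjusted p = 0.3). The shares did not overlap, by a margin of less than 0.1 percentage points, and Slc25a5 was the main exchanger in every library. Slc25a33 made up 65.0% ± 3.83 of the pyrimidine nucleotide pair in STAT3+ CM and 57.3% ± 5.92 in STAT3- CM (SD, n = 3 each; exact permutation p = 0.1, adjusted p = 0.3). Its shares did not overlap either. Vdac2 made up 34.5% ± 0.435 of the 3 porins in STAT3+ CM and 33.8% ± 0.177 in STAT3- CM (exact permutation p = 0.1, adjusted p = 0.3). The other 6 shares overlapped between the media, with exact permutation p from 0.3 to 0.9. Slc25a4 and Slc25a5 are close relatives, and the annotation lists pseudogenes of Slc25a5, Mpc1 and Vdac3, so values of these genes are uncertain where reads were shared.

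Other mitochondrial genes with which the carriers work were described in 11 lists, and 0 of their genes was called by edgeR in either direction. Among 31 genes of protein import, 30 were positive (27 with library totals only), with a median of 0.14. Its smallest p-values belonged to Dnajc19, a part of the import motor (52.3 ± 8.56 CPM in STAT3+ CM and 40.3 ± 5.43 CPM in STAT3- CM; log2 fold change 0.38, SE 0.16), and Timm8b, a small chaperone between the membranes (92.4 ± 16.0 CPM in STAT3+ CM and 74.5 ± 6.54 CPM in STAT3- CM; log2 fold change 0.31, SE 0.15). All 18 subunits and regulators of the ATP synthase were positive (16 with library totals only), with a median of 0.17, the smallest p-values belonging to the subunit genes Atp5md (0.34, SE 0.16) and Atp5mpl (0.32, SE 0.15). The media did not overlap in 3 of 31 import genes (9.68%), Timm8b among them, against 7.95% of all genes tested. In the ATP synthase list they did not overlap in 1 of 18 (5.56%), Atp5md. The medians of both lists overlapped between the media. Against each gene's own mean, the median gene of the import list stood at -0.032, 0.32 and -0.021 in STAT3+ CM, against 0.019, 0.074 and -0.32 in STAT3- CM on the log2 scale. That of the ATP synthase list stood at 0.12, 0.28 and -0.13 in STAT3+ CM, against -0.065, -0.033 and -0.17 in STAT3- CM. In both lists the median was highest in STAT3+ CM replicate 2 and lowest in STAT3- CM replicate 3, as in the 48 members. In the 41 Slc25a genes alone STAT3+ CM replicates 2 and 3 stood almost level, at 0.055 and 0.054.

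The enzymes on either side of the carriers were mixed, and with library totals only each list below had 1 to 3 fewer positive genes. Pyruvate dehydrogenase and the TCA cycle had 18 of 28 genes positive, with a median of 0.067. There Pcx, pyruvate carboxylase, averaged 5.84 ± 1.36 CPM in STAT3+ CM and 9.05 ± 0.476 CPM in STAT3- CM (log2 fold change -0.64, SE 0.20, edgeR adjusted p = 0.989), and Pdk1, a kinase that restrains pyruvate dehydrogenase, 126 ± 30.3 CPM in STAT3+ CM and 99.1 ± 2.68 CPM in STAT3- CM (log2 fold change 0.35, SE 0.16, edgeR adjusted p = 0.989). The media did not overlap in either gene, as in 7.95% of all genes tested. In Pdk1 the nearest libraries were STAT3+ CM replicate 3 at 101.7 CPM and STAT3- CM replicate 3 at 101.3 CPM. Without STAT3+ CM replicate 1, at 159.9 CPM, the log2 fold change of Pdk1 was 0.14. The malate-aspartate and citrate shuttles had 7 of 12 positive, with a median of 0.035 and the low genes Me1 (-1.07, SE 0.40) and Gpd1 (-1.48, SE 0.60) at its smallest p. The media did not overlap in Me1 but did in Gpd1. Mitochondrial one-carbon, serine and glycine genes had 5 of 12 positive and a median of -0.13. Aldh1l2, which oxidises formyl-folate in the matrix, averaged 4.26 ± 0.776 CPM in STAT3+ CM and 6.64 ± 0.357 CPM in STAT3- CM (log2 fold change -0.63, SE 0.20, edgeR adjusted p = 0.989), without overlap, and the sideroflexin gene Sfxn3 had -0.25 (SE 0.16).

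Genes of glutamine, proline and ornithine use had 6 of 13 positive, a median of -0.0100, and the arginase gene Arg2 (-0.85, SE 0.43) and the branched-chain transaminase gene Bcat2 (0.22, SE 0.12) at the smallest p. The carnitine shuttle and beta-oxidation had 13 of 17 positive and a median of 0.11, with the oxidation enzymes Eci1 (0.32, SE 0.13) and Acaa2 (0.21, SE 0.12) at the smallest p. Heme and iron-sulfur cluster genes, the users of mitochondrial iron, had 13 of 20 positive and a median of 0.082, with the heme enzyme Alad (0.26, SE 0.13) and the cluster assembly gene Isca2 (0.22, SE 0.12) at the smallest p, while both mitoferrins were negative. The calcium uniporter complex had 5 of 8 positive and a median of 0.055, with the pore gene Mcu at 0.17 and Mcur1 at -0.19. Mitochondrial dynamics and cristae genes had 9 of 15 positive and a median of 0.013, with Micos10 at 0.24 and Apoo at 0.23. The biogenesis factors had 7 of 12 positive and a median of 0.027, with Esrra at 0.22.

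**Figure D5:**
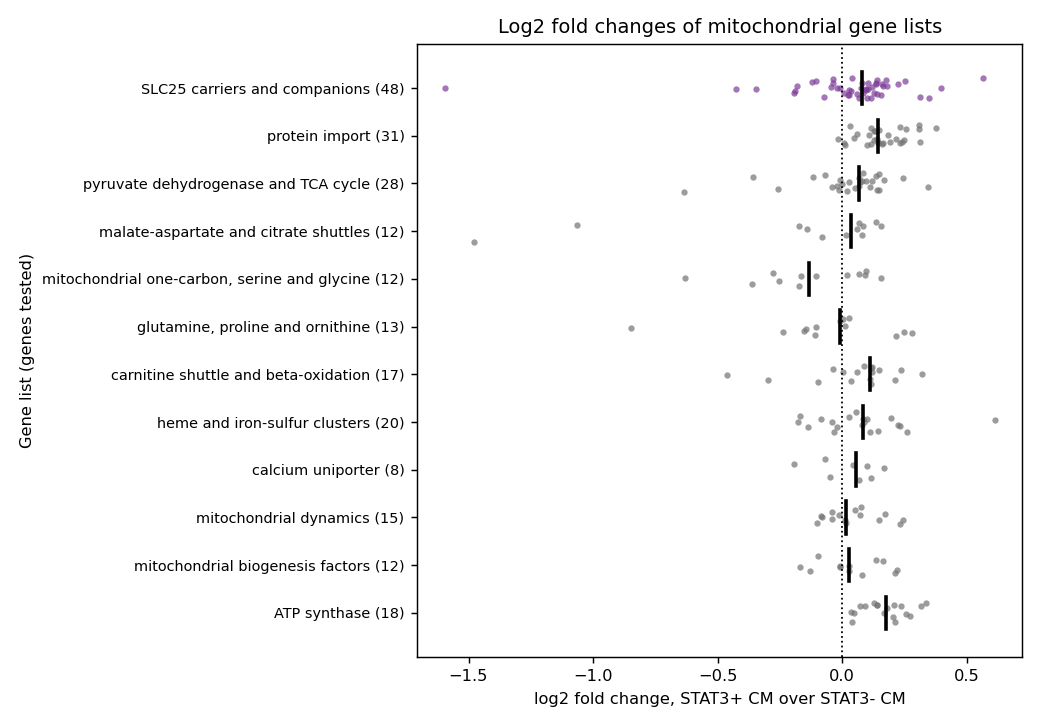
Log2 fold changes, STAT3+ CM over STAT3- CM, of the carriers and companions and of 11 lists of related mitochondrial genes, with the number of genes tested in brackets. Points are genes, thick bars the list's median, and the dotted line the median of all genes tested. Medians run from -0.13 for one-carbon genes to 0.17 for the ATP synthase, and no gene in the plot was called.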

How the data were processed

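The deposited table holds read counts per gene for 6 libraries, which the columns' descriptions tie to the samples. Per the labels' protocols, 500 ng of RNA with a quality score of 9.4 on average (9.0 to 9.8) went into poly(A)-selected, directional libraries. The submitters' processing notes name the genome build GRCm39 and, with no roles, Cufflinks 2.2.1, SAMtools 0.1.19, TopHat2 2.0.10 and Bowtie 1.0.0. The sources used here give neither the counting program nor its use of strand. The lowest gene total in the deposited counts was 40, so the authors' table appears to be filtered.

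Counts were fitted in R 4.3.3 with edgeR 4.0.16: filterByExpr left 14319 of 14481 genes, TMM factors ran from 0.960 to 1.06, and the quasi-likelihood test used all 6 libraries with Benjamini-Hochberg adjustment over 14319 genes and a threshold of 0.05. The pipeline was tested on simulated counts with known changes. The share of those changes that it called is not reported here, so the power behind the 0 calls cannot be judged from the text. Log2 CPM for the principal components and for the correlations between libraries used a prior count of 2. Log2 values relative to each gene's mean, including those plotted, were taken after adding a smaller constant to CPM. Levels per kb used GENCODE exon lengths (GRCm38), matched by symbol for 48 of 48 genes. Promoters came from RefSeq (GRCm38.p6) and were scanned in Python 3.11.15 (pandas 2.3.3). Shares were tested with scipy 1.17.1. Alternatives were other scalings and filters, DESeq2 1.42.0, limma-voom 3.58.1, an older quasi-likelihood method, a replicate block and libraries left out. Values in every library are given for 24 members: the 7 genes outside Slc25a, the 10 Slc25a genes with the smallest p, the highest Slc25a gene per kb in each role, and any without overlap between media. 1 member that this choice would include is counted but not reported here. Those of Slc25a23 were added after its values were seen. Of each related list the 2 genes with the smallest p are named. The members and lists were chosen with earlier results of these data known.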

Additional observations from a re-analysis of the deposited data

How the results depend on the processing

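Calls among the 48 members were 0 under all 17 alternatives. Over all genes, where the main count was 0, DESeq2 called 48, limma-voom with sample quality weights 16, and the fit without both STAT3- CM replicate 3 and STAT3+ CM replicate 1 called 10. With single libraries left out that count ran from 0 to 18, the highest without STAT3- CM replicate 3. Members without overlap between the media, 1 in the full set, numbered 3 to 8 of 48 with single libraries left out, where the share over all genes was 11.3% to 27.95%, and 11 of 48 without that pair, where it was 35.3%. Fewer libraries are compared there, and the members' share lay below that of all genes each time. The members' median log2 fold change, 0.081, was 0.038 with library totals only, and ran from 0.042 without STAT3+ CM replicate 2 to 0.12 without STAT3+ CM replicate 3.

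Alternatives were run for 46 of the genes named, 24 of the members given by library and 22 genes of the related lists. Of these 36 kept their direction under all alternatives and 0 was called under any. The other 10 reversed under at least 1, and the cause was not tested. With library totals only, Slc25a5 stood at -0.018 and Slc25a53 at -0.0084. With sample quality weights, Slc25a28 stood at 0.047, Slc25a30 at 0.083, Slc25a42 at 0.020 and Slc25a5 at -0.0030. Without the pair, Slc25a28 stood at 0.050, Slc25a37 at 0.052, Slc25a42 at 0.15, Slc25a5 at -0.029, Slc25a53 at -0.0028 and Vdac3 at -0.039. With single libraries left out, log2 fold changes ran from -0.031 to 0.13 for Mpc1, -0.0080 to 0.14 for Slc25a11, -0.14 to 0.079 for Slc25a28, -0.25 to 0.20 for Slc25a30, -0.31 to 0.033 for Slc25a37, -0.57 to 0.15 for Slc25a42, -0.029 to 0.085 for Slc25a5, -0.061 to 0.13 for Slc25a53, -0.014 to 0.15 for Ucp2 and -0.051 to 0.18 for Vdac3. The filter of at least 1 CPM in at least 3 libraries leaves out Slc25a41, Slc25a43 and Slc25a48, so they have no value under it.

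Replicate numbers are shared by the media, and no label says that they mark pairs, so the main fit was unpaired. The deviations of same-numbered libraries correlated at -0.261, 0.281 and 0.182. With 3 libraries per medium these values cannot settle whether the libraries were paired. With the replicate number as a block the calls were 0 among all genes and 0 among the members, the member without overlap was 1, and the members' median was 0.083. At 43346089 to 53630514 counts per library, the limits set by depth and by the spread between 3 libraries were not separated.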
